A study of Capra hircus with 6 samples.

Results

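Circular RNAs (circRNAs) arise when a downstream splice site is joined back to an upstream one, and they are recognised by reads that cross this back-splice junction. The 2 ends of a circRNA can lie far apart in the genome, and the distance between them, the span, is not the length of the molecule where inner introns are removed. Many circRNAs come from exons of protein-coding genes, and a host gene is normally assigned from an annotation. Described here are 1229 circRNAs for which that assignment cannot be read at face value: their span exceeds 20000 bases, their listed parts are introns only, and they carry a gene identifier that is listed on 2 or more chromosomes or with an exon or intron over 1000000 bases. They are called long intronic circRNAs below, a name that only repeats the listed parts. Those parts come from these same identifiers, so an origin in introns is not shown. The 1229 were chosen from position, parts and identifier, with earlier results of these data known, and no read count entered the rule. To be listed at all, each still needed a smallest number of reads that rose with its span. They made up 8.81% of the 13950 distinct circRNAs (chromosome, start, end and strand) listed in the 6 libraries pooled, and 45927 of the 252857 back-splice reads (18.2%).

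Each of the 6 libraries came from the ovarian follicles of 1 goat, 3 of the Boer breed and 3 of the Macheng black breed, and the study's design text names the follicles as pre-ovulatory. Animals of both breeds received 1000 IU of PMSG (pregnant mare serum gonadotropin, which drives follicle growth) and 500 IU of hCG (human chorionic gonadotropin, which mimics the ovulatory surge), so breed was the only labelled difference and no untreated group was included. Total RNA was depleted of ribosomal RNA, and the labels name no digestion of linear RNA. The number of follicles per sample is not given in the sources used here, nor is the age of the animals. Listed back-splice reads ranged from 23480 in Macheng black 3 to 74796 in Boer 1, and distinct circRNAs from 3347 to 7005. Whole follicles hold granulosa, theca, vascular and other cells; among usable host identifiers, 1 of 9 granulosa genes looked for (NR5A2, a nuclear receptor of steroidogenic cells), 0 of 5 theca genes, 0 of 4 blood and endothelial genes and 0 of 4 oocyte genes was found, so the tissue label could not be checked further from circRNA hosts.

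The smallest number of reads with which a circRNA was listed rose with its span, and this sets what can be said of the long ones. Entries spanning under 20000 bases were listed from 2 reads. For spans of 20000 to 30000 bases the fewest was 3 reads, for 30000 to 40000 it was 4, for 40000 to 50000 it was 5, and it rose by 1 read for every further 10000 bases to 10 reads for 90000 to 100000. The 4 classes from 20000 to 60000 bases had fewest reads of 3, 4, 5 and 6 in each of the 6 libraries taken alone. Over all libraries, 590 entries sat at the lowest value of the first of these classes, 188 at that of the next, then 60 and 29, but 1 each in the last 2 classes, so the highest steps are less sure. A long circRNA that is not listed in a library may therefore have had up to 2 reads there, or more at larger spans. It was entered as 0 in the tests. These limits were inferred from the values and hold only if too few reads was the sole reason for no listing. The caller is not given, so other reasons could not be checked.

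**Figure D1:**
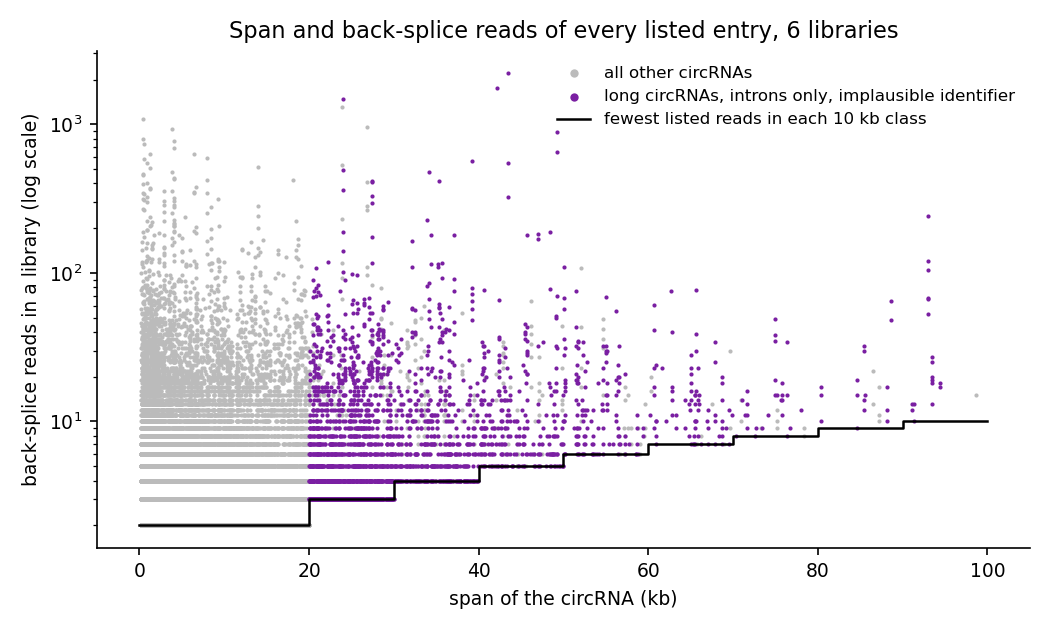
Each point is 1 listed entry, with the span of the circRNA in kilobases on the horizontal axis and its back-splice reads in that library on a log axis; the long intronic circRNAs with implausible identifiers are purple, all others grey. The black line joins the fewest reads seen in each class of 10 kb and rises from 2 reads below 20 kb to 10 reads above 90 kb.

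The implausible identifiers were few and were shared by many circRNAs. Of 829 identifiers in the files, 27 met the criterion, all 27 through a listed part over 1000000 bases and 14 of them also by occurring on 2 or more chromosomes. The long intronic circRNAs carried 21 of these 27. Identifier 102095676 had 185 of them on 18 chromosomes, 102095649 had 169, 102095680 had 132, 102095678 had 122 and 102095692 had 106. None of the 21 had a symbol in the RefSeq gene table (0 of 21). Among the 27, 1 identifier had a symbol, KCNIP4, a potassium channel interacting protein, and it was carried by no long intronic circRNA.

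The listed introns were far larger than the circRNAs placed in them. Across the 1229, the median of the longest listed intron was 33698519 bases with a range from 1863984 to 95910824, and its median ratio to the span was 1198. All but 2 of the circRNAs (1227) lay inside 1 listed intron, and the whole set used 183 distinct introns. The deposited spliced length equalled the full length in all 1229, so the files contain no exon structure for them. Of the whole set, 3 carried 2 identifiers, 2 of these with a second identifier that was plausible, and 2 had identifiers that differed between libraries. Overlap with a circRNA carrying a usable identifier would have placed a named gene at the locus, and 0 of 1229 had such an overlap on either strand, so no host gene is named below. For circRNAs of the same identifiers and class with spans up to 20000 bases, called short circRNAs of the same class here, the counts were 0 of 10250 on the same strand and 14 on the other strand.

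Spans ran from 20008 to 94426 bases with quartiles of 23300, 27620 and 36647, and 115 exceeded 50000 bases. Long circRNAs with a usable identifier, of which there were 228, had a similar median span of 28770 bases. Among all circRNAs over 20000 bases (1469), 83.7% belonged to the set with implausible identifiers. The limit of 20000 bases cuts through a continuous range. Just above it lay chr11:65793023-65813030 with a span of 20008 bases and 3 reads in Boer 1 only, chr17:48936022-48956048 with 20027 bases and chr6:89619997-89640038 with 20042 bases. Just below it lay chr17:18216573-18236571 with 19999 bases, chr22:47615892-47635888 with 19997 bases and chr17:18216576-18236571 with 19996 bases. The last and the first of these 3 differ by 3 bases at the start. The first of them was listed in all 6 libraries with 30, 7 and 22 reads in Boer 1 to 3 and 17, 15 and 18 reads in Macheng black 1 to 3.

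Long intronic circRNAs were found on 30 chromosomes, on plus (613) and minus (616) strands about equally, and 0 were on unplaced scaffolds, which held 127 circRNAs in all. Chromosome 3 had the most (128 of its 776 circRNAs, 16.5%), and chromosome 12 had the lowest share (2.85%, 10 of 351). These positions are as the files give them; the genome build is not given in the sources used here, so no sequence is shown.

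Nearly as many circRNAs of the set were seen in a single animal as in several, and a small group found in every animal held most of the reads. Of the 1229, 609 (49.6%) were listed in 1 library, 210 in 2, 125 in 3, 85 in 4, 66 in 5 and 134 (10.9%) in all 6. The 134 circRNAs listed in every library held 52.9% of the reads of the set. All other circRNAs had 60.2% in 1 library and 7.85% in all 6, and long circRNAs with a usable identifier had 46.1% and 12.7%. By breed, 988 long intronic circRNAs were listed in at least 1 Boer goat, 755 in at least 1 Macheng black goat and 514 in both. These numbers are not at equal depth. Listed reads were 74796, 24884 and 41536 in Boer 1 to 3 and 39020, 49141 and 23480 in Macheng black 1 to 3. The same numbers were not taken for other circRNAs. Detection in all 3 animals of one breed and none of the other was rare, with 7 circRNAs in Boer only (0.570%) and 5 in Macheng black only (0.407%). Among the 12721 other circRNAs these counts were 57 (0.448%) and 30 (0.236%).

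A long intronic circRNA listed in one library was also listed in another in 65.7% to 88.4% of cases, depending on the library. The mean over 6 libraries was 81.0% ± 7.92 (SD), against 71.2% ± 3.08 for all other circRNAs, and the long ones were higher in 6 of 6 libraries (difference 9.88 percentage points, two-sided exact sign-flip permutation test, p = 0.031, the smallest p that 6 libraries allow). This difference turned with the number of reads. Restricted to entries with at least 5 reads it was -6.06 points (long intronic circRNAs lower in 6 of 6 libraries, exact permutation p = 0.031). With at least 10 reads it was -2.89 points (lower in 5 of 6 libraries and equal in 1, exact permutation p = 0.0625). Both cuts apply to the entry counted only. Listing in another library still needed the listing minimum there, which is higher for long spans, so these cuts do not put the sets on equal terms. Against long circRNAs with a usable identifier, which share the listing minimum, it was -2.95 points (lower in 6 of 6, exact permutation p = 0.031). The mean was lower for the long intronic circRNAs under all 3 restrictions, of which only the last compares sets with the same listing minimum.

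The number of long intronic circRNAs per library was 764, 337 and 538 in Boer 1 to 3 and 386, 556 and 297 in Macheng black 1 to 3. The order of the 6 libraries by this number was also their order by total reads. The means were 546 ± 214 and 413 ± 132 (SD, n = 3 each), and the breeds overlapped (two-sided exact permutation test, p = 0.5, where 3 against 3 cannot go below 0.1). Their difference of 133 was 24.5 without Boer 1, 238 without Boer 2, 205 without Macheng black 2 and 75.3 without Macheng black 3. Drawn down to equal reads with at least 2 kept, the expected numbers were 438 ± 88.7 and 366 ± 80.1 (exact permutation p = 0.3), and with the listing minimum of each span kept they were 302 ± 26.2 and 270 ± 30.2 (exact permutation p = 0.3).

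The ends of these circRNAs recurred. A start or an end position was shared with at least 1 other circRNA of the same strand in 935 of 1229 (76.1%), and 367 shared both ends with others. The share was 46.7% among all other circRNAs, 47.1% among short circRNAs of the same class and 76.3% among long circRNAs with a usable identifier. The most used positions served 4 long intronic circRNAs each. The start at chr21:58310075 on the plus strand joined 6 circRNAs with spans from 4800 to 41553 bases, 4 of them over the limit, with 384 reads from those 4. The end at chr1:132740114 on the plus strand joined 5 circRNAs from 1457 to 52302 bases. The ends at chr1:123888880, chr1:116002142 and chr4:68736115, all on the minus strand, each joined 4 circRNAs, all of them over 20000 bases. Only 18 of the 1229 had another circRNA within 20 bases at both ends, so near-identical copies of one back-splice were a small part of the set.

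Overlapping circRNAs of 1 strand were joined into loci over the whole table, which gave 8112 loci, 802 of them with at least 1 long intronic circRNA. Of the 802 loci, 575 had 1 such circRNA, 204 had 2 to 4 and 23 had 5 or more, and 654 long intronic circRNAs (53.2%) shared a locus with another. Shorter circRNAs nested in the same regions: the 802 loci held 3027 circRNAs, of which 1798 were outside the set, and 603 loci held at least 1 short circRNA of the same class. The long ones supplied 47.1% of the back-splice reads of these loci. Loci with the most long intronic circRNAs were chr17:60975770-61075109 on the minus strand with 12 of its 18 circRNAs, chr3:49534116-49609055 on the plus strand with 9 of 20, chr3:65644796-65704762 on the minus strand with 8 of 15 and chr23:24338001-24405648 on the minus strand with 7 of 13. The loci chr4:92174663-92302581 and chr4:68686024-68736118 on the minus strand and chr14:74614217-74663061 on the plus strand had 7 each, and chr14:47466973-47585418 on the minus strand had 6. Many circRNAs at a locus did not mean many reads: the chr3:65644796-65704762 and chr14:74614217-74663061 loci had 71 reads each from their long circRNAs over all 6 libraries, whereas chr14:47466973-47585418 had 331.

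Reads were concentrated in a few loci. The first 3 loci held 29.9% of the reads of the set and the first 10 held 42.6%. Levels below are back-splice reads per 1000000 listed back-splice reads (CPM) after TMM scaling; in bulk tissue, fewer cells of a type and less circRNA per cell cannot be told apart. The minus-strand locus chr23:24338001-24405648 led with 7681 reads from long circRNAs, followed by chr17:60975770-61075109 with 3541 and chr3:40445037-40495518 with 2511. Next were chr29:43233035-43260470 on the plus strand with 1738 reads and the minus-strand loci chr13:32510190-32643587 with 1025 and chr7:15072980-15122431 with 799. The plus-strand locus chr16:31200103-31261000 had 626 reads and the minus-strand locus chr17:57621443-57684280 had 576.

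**Figure D2:**
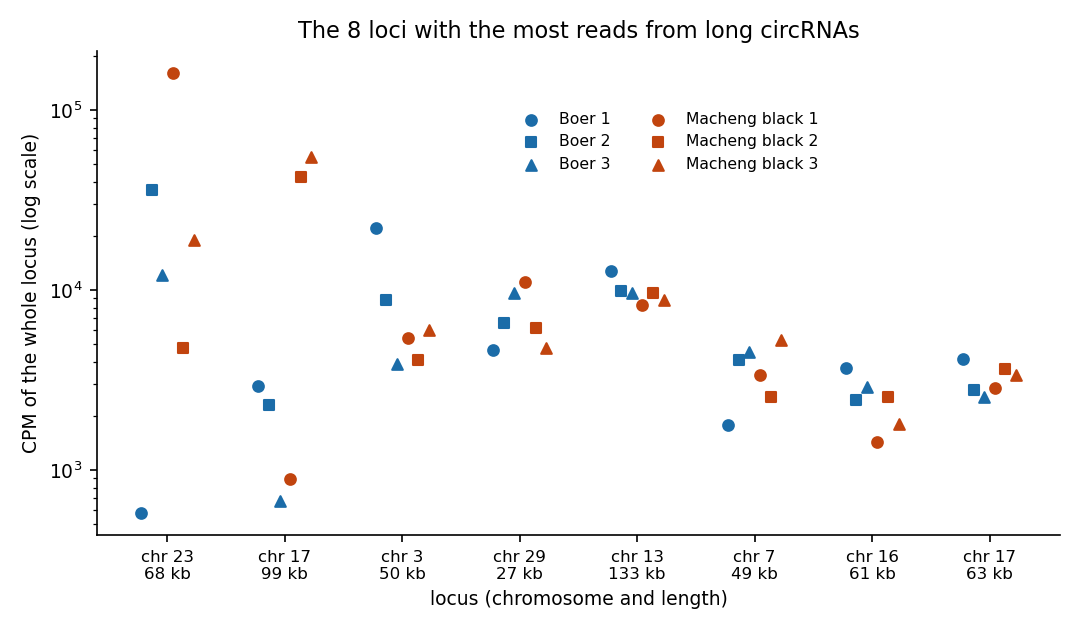
The 8 loci with the most reads from long intronic circRNAs are placed along the horizontal axis with their length in kilobases; each point is 1 library, on a log axis of CPM for the whole locus, Boer in blue and Macheng black in orange. The chromosome 23 locus ran from 579 to 161210 CPM and the first chromosome 17 locus from 674 to 54902 CPM, while the chromosome 13 locus stayed between 8237 and 12779 CPM.

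The chromosome 23 locus was high in 1 animal. Its summed reads were 41, 952 and 523 in Boer 1 to 3 and 5930, 228 and 464 in Macheng black 1 to 3. Macheng black 1, where the locus made up 15.2% of all listed reads, stood far above the other 5 libraries, and the remaining Macheng black goats lay inside the Boer range in CPM. The locus had a between-animal coefficient of variation (CV, SD over mean of CPM) of 157%. It did not pass the breed test (edgeR log2 fold change of Boer over Macheng black -1.94 ± 0.75 SE, adjusted p = 0.671). With no filter on low counts it passed (edgeR adjusted p = 7.39e-05), and without Macheng black 1 the log2 fold change was 0.44.

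Within that locus a few back-splices differed sharply between animals. The circRNA chr23:24338001-24362056 was listed in every library, with 41, 362 and 489 reads in Boer and 1476, 187 and 141 in Macheng black. A second one with the same start, chr23:24338001-24381470, had the highest mean level of the whole set (15392 CPM) but was listed in 3 libraries only, with 545 reads in Boer 2, 2201 in Macheng black 1 and 323 in Macheng black 3. It was not listed in Boer 1, Boer 3 and Macheng black 2. By the inferred listing minimum, these libraries could hold at most 4 reads each at its span of 43470 bases. Other reasons for no listing could not be checked. The circRNA chr23:24341626-24383772 was listed in Macheng black 1 alone, with 1742 reads, and the same limit of 4 reads applied to the other 5 libraries. Neither of the first pair passed the breed test (edgeR adjusted p = 1.0 for each, log2 fold changes -1.05 ± 0.76 and -1.99 ± 1.32), and both turned positive without Macheng black 1 (0.78 and 0.01). With no filter the second of them passed (edgeR adjusted p = 0.0482).

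The chromosome 3 locus chr3:40445037-40495518 was high in Boer 1. Boer 1 was also the highest library for each of its 4 long circRNAs. The circRNA chr3:40456341-40495518 had 563, 79 and 72 reads in Boer and 65, 57 and 48 in Macheng black, chr3:40449024-40483127 had 478, 86 and 55 against 67, 55 and 49, and chr3:40446369-40481707 had 413, 59 and 34 against 58, 62 and 43. The fourth, chr3:40445037-40479398, had 114, 11 and 7 reads against 10, 22 and 4. By reads, Macheng black 2 was the second highest library for this circRNA and for chr3:40446369-40481707. Boer 1 to 3 had 22141, 8842 and 3904 CPM at the locus against 5437, 4089 and 6032 CPM, which overlap, and it did not pass the breed test (edgeR log2 fold change 1.17 ± 0.43, adjusted p = 0.547).

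Other abundant circRNAs of the set varied less. The single circRNA of its locus, chr29:43233035-43260470, had 5070, 5987 and 9665 CPM in Boer against 11440, 6449 and 4452 CPM, with overlapping breeds and a CV of 38.5%. The circRNA chr13:32550633-32643587 was among the longest of all at 92955 bases and among the 10 highest in mean level, with 242, 67 and 121 reads in Boer and 68, 105 and 53 in Macheng black and a CV of 27.2%. The other 2 of the 3 longest were far less abundant, namely chr5:27706269-27799794 (93526 bases), with 13 to 27 reads in every library, and chr1:19399918-19494343 (94426 bases), with 17 reads in Boer 1, 18 in Macheng black 1 and no listing elsewhere. The 8 loci above other than those of chromosomes 23, 3 and 17:60975770 had edgeR adjusted p-values of 0.86 or more.

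Between-animal spread was larger than in other circRNAs of like abundance, and the widest spread among the most abundant lay in 2 loci. Of 27 long intronic circRNAs with a mean of at least 1000 CPM, 9 had a CV over 100%, against 2 of 96 other circRNAs, and the median CVs were 44.5% and 28.2%. Of those 9, 6 lie in the chromosome 17 locus and 3 in the chromosome 23 locus. From 300 to 1000 CPM the median CVs were 40.7% (89 circRNAs) and 37.6% (368), and 8 against 5 had a CV over 100%. From 100 to 300 CPM they were 74.5% (164) and 58.3% (888), a range in which the higher listing minimum of long spans leaves more libraries at 0. In every class fewer of the set were listed in all 6 libraries. The shares were 77.8% against 99.0% from 1000 CPM, 78.7% against 97.0% from 300 to 1000 and 26.2% against 56.9% from 100 to 300. Libraries without a listing count as 0 in the CV, and how much of the spread this makes was not tested. Long circRNAs with a usable identifier, which share the listing minimum, were not compared here. These are descriptions without a test. Among the 30 member loci with the most reads, CVs ran from 13.8% to 196% with a median of 29.9%. The highest was chr10:55304456-55361835 on the plus strand, with 0, 14 and 29 reads in Boer and 213, 0 and 0 in Macheng black. The locus chr5:11914438-11966707 on the plus strand, the last of the 5 most variable, had a CV of 47.0%, so the first 4 stood apart from the rest.

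Long intronic circRNAs supplied a larger share of the back-splice reads in each Macheng black goat than in any Boer goat. With the 3 loci holding the most such reads set aside, the shares overlapped, but those loci were picked from these same reads. The shares were 16.1% (exact Clopper-Pearson 95% interval 15.8 to 16.3), 16.8% (16.3 to 17.2) and 16.1% (15.7 to 16.4) in Boer 1 to 3. In Macheng black 1 to 3 they were 25.2% (24.8 to 25.7), 17.6% (17.3 to 17.9) and 19.4% (18.9 to 19.9). The intervals cover counting error only, since reads without molecular identifiers are not independent molecules. The means were 16.3% ± 0.387 and 20.7% ± 3.99 (SD, n = 3 each), and the breeds did not overlap (two-sided exact permutation p = 0.1, the smallest that 3 against 3 allows). Without Macheng black 1 the difference went from -4.43 to -2.19 points. The chromosome 23 locus moved with this result. Without it the shares were 16.03%, 13.5% and 15.0% in Boer and 13.1%, 17.2% and 17.8% in Macheng black, which overlap (exact permutation p = 0.6), and Macheng black 1 went from the highest library to the lowest. Long intronic circRNAs outside the 3 loci with the most such reads supplied 13.7%, 11.8% and 14.4% of all back-splice reads in Boer 1 to 3. In Macheng black 1 to 3 they supplied 10.5%, 12.7% and 11.4%, which overlap with Boer, and this was not tested. The total here keeps the reads of the 3 loci, whereas the shares without the chromosome 23 locus drop its reads from the total. Macheng black 1 gave 5497 of the 7681 long-circRNA reads at chromosome 23, and Boer 1 gave 1568 of 2511 at chromosome 3. At chromosome 17, Macheng black 2 and 3 gave 1970 and 1279 of 3541. Setting aside loci picked by such reads cannot show whether the rest differs between breeds. As a share of distinct circRNAs rather than reads, the means were 10.3% ± 0.702 in Boer and 9.30% ± 0.842 in Macheng black (exact permutation p = 0.2).

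**Figure D3:**
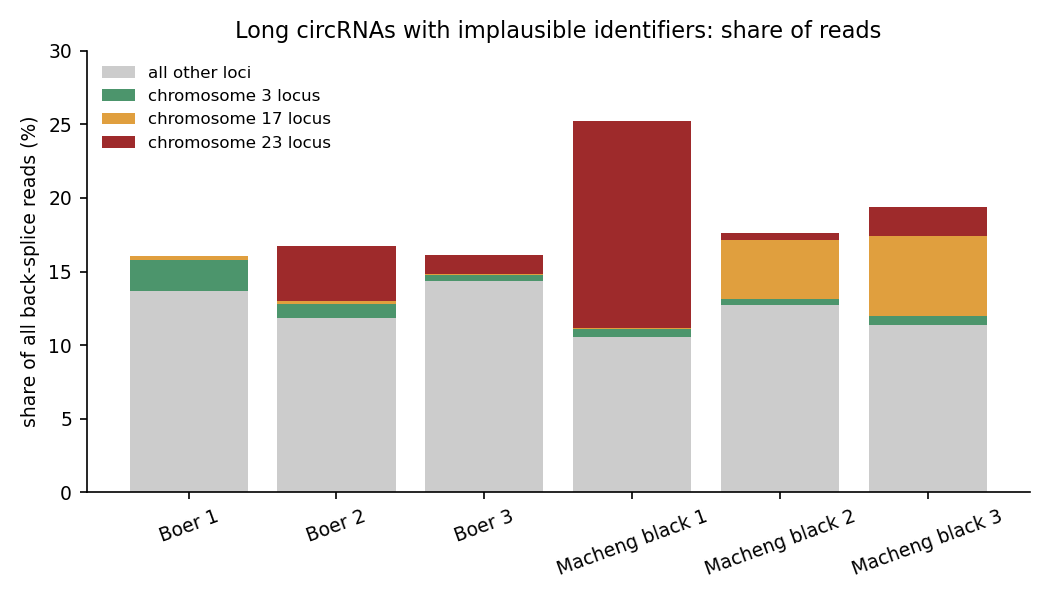
Bars give, for each library, the percentage of all listed back-splice reads that came from long intronic circRNAs, stacked by the 3 loci with the most such reads and all other loci. The chromosome 23 locus takes up most of the height by which Macheng black 1 (25.2%) exceeds the others, and the chromosome 17 locus is thick only in Macheng black 2 and 3.

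The junction read share, junction reads as a percentage of junction plus non-junction reads of an entry, was low in the set. Its median per library was 0.516% to 0.899%, against 1.93% to 3.07% for all other circRNAs (mean difference -1.71 percentage points, lower in 6 of 6 libraries). Against short circRNAs of the same class the difference was -1.59 points and against long circRNAs with a usable identifier -0.226 points, each also lower in 6 of 6. All 3 comparisons gave a two-sided exact sign-flip permutation p of 0.031, the smallest possible, and the same value after Benjamini-Hochberg adjustment over the 3. Short circRNAs of the same class, and most of all others, have shorter spans by the rule itself. Those comparisons therefore cannot separate junction read share from span. Only the long circRNAs with a usable identifier had similar spans. Non-junction reads rose with span in every library (Spearman correlation over circRNAs 0.666 to 0.727, a description in which all points share a library), and the long entries collected a median of 852 to 1317 of them per library against 149 to 186 for others.

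The difference in junction read share was larger among entries with at least 5 reads. It was then -4.06 points against short circRNAs of the same class and -0.341 points against long circRNAs with a usable identifier. Each was lower in 6 of 6 libraries (exact sign-flip permutation p = 0.031). Only the second of these compares sets of similar span. Non-junction reads per kilobase of span, a measure that leaves out junction reads, were close to those of short circRNAs. Non-junction reads per kilobase had a mean over library medians of 36.3 ± 6.30 (SD, n = 6) in the long intronic circRNAs and 37.0 ± 4.52 in short circRNAs of the same class (exact sign-flip permutation p = 0.406). Long circRNAs with a usable identifier had 26.9 ± 5.74, fewer than the long intronic ones in 6 of 6 libraries (exact permutation p = 0.031). The junction read share stayed lower than in that last set in 2 alternatives but with a larger p: as a ratio of summed reads the difference was -0.278 points and with spans over 50000 bases -0.192 points (lower in 5 of 6 libraries and exact permutation p = 0.281 for each).

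**Figure D4:**
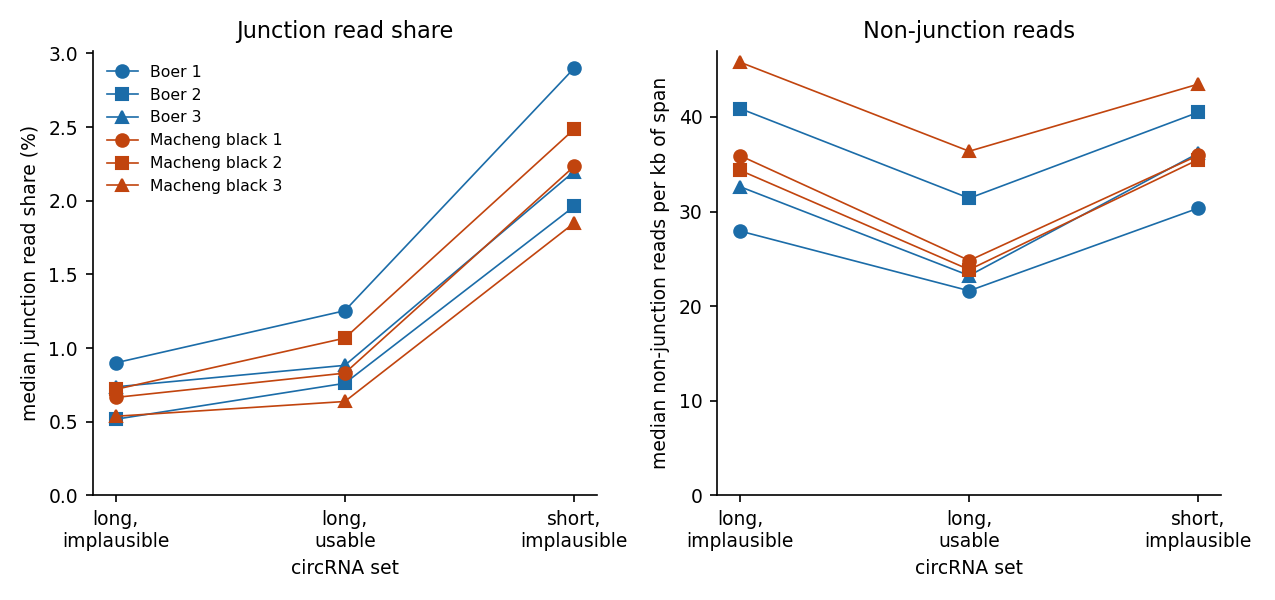
Left, the median junction read share (%) and right, the median non-junction reads per kilobase of span, for long intronic circRNAs with implausible identifiers, long circRNAs with usable identifiers and short circRNAs of the same class as the first; each line is 1 library, Boer in blue and Macheng black in orange. All 6 lines rise from left to right in the left panel, from 0.516% to 0.899% at the first set, and in the right panel all 6 dip at the middle set.

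By breed, the median junction read share of the set was 0.899%, 0.516% and 0.736% in Boer and 0.664%, 0.719% and 0.537% in Macheng black. The means were 0.717% ± 0.192 and 0.640% ± 0.0937 (SD, n = 3 each), and the breeds overlapped (exact permutation p = 0.6). Boer 2 and Macheng black 3, the libraries with the fewest reads, had the lowest values.

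A few long circRNAs had junction shares far from the rest: over the libraries that list it, the median was above 5% in 40 of 1229 and above 20% in 8. Among circRNAs with at least 10 reads in every library that lists them and listed in at least 3, the highest was chr23:24338001-24362056, with 77.4% to 96.8% in the 6 libraries, since only 12 to 49 non-junction reads were counted for it. Its partner with the same start, chr23:24338001-24381470, had 36.3%, 50.9% and 50.2% in the 3 libraries that list it. The circRNA chr29:43233035-43260470 had 35.8% to 48.7%, chr19:41834060-41879494 on the plus strand had 8.70% to 19.5% and chr8:36823203-36843979 on the minus strand had 6.98% to 31.8%. The last of these had 107, 32 and 79 reads in Boer and 53, 70 and 27 in Macheng black, and its levels overlapped between breeds.

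For breed differences, all circRNAs reaching 2 or more reads in 3 or more libraries were fitted together with edgeR, and p-values were adjusted over all of them. Of the 1229 long intronic circRNAs, 410 (33.4%) entered the test, and 8 had an adjusted p under 0.05, with 1 of them higher in Boer and the other 7 lower there. That is 1.95% of those tested, where the background over all circRNAs tested was 0.35% (0.108% higher in Boer, 0.242% higher in Macheng black). Of the 7 higher in Macheng black, 6 lie in the chromosome 17 locus, where circRNAs share ends. Levels of the 2 breeds did not overlap in 49 of 410 (11.95%), close to the 11.7% of all circRNAs tested. The median log2 fold change (Boer over Macheng black) was 0.32 in the set and 0.11 over all tested. The count moved with the library left out. With the tested set held fixed it was 1 without Boer 1, 0 without Boer 2, 10 without Boer 3, 11 without Macheng black 1, 6 without Macheng black 2 and 4 without Macheng black 3. Refiltered on the 5 libraries kept, it was 1, 7, 6, 8, 0 and 2 in the same order. In the fixed set without Boer 2, where 1 of all 3712 circRNAs was called, 36 of the 410 and 186 of the 3712 had an unadjusted p under 0.05, and in the refiltered set without Macheng black 2, where 0 of 2996 were called, these were 45 of 326 and 171 of 2996. DESeq2 called 4 with all libraries.

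The chromosome 17 locus chr17:60975770-61075109, on the minus strand, was high in 2 of 3 Macheng black goats. Its reads were 207, 61 and 29 in Boer and 33, 2037 and 1338 in Macheng black, or 2923, 2295 and 674 CPM against 897, 42494 and 54902 CPM. Macheng black 2 and 3 stood above all Boer goats, and Macheng black 1 lay inside the Boer range, so the breeds overlapped. The locus passed the breed test (edgeR log2 fold change -4.05 ± 0.66 SE, adjusted p = 8.27e-05). It lost the call in 8 of 18 alternatives, among them those without Macheng black 3 (adjusted p = 0.0985), without Boer 2 (0.112), with DESeq2 (0.493) and with a robust prior in edgeR (0.953).

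Within the locus the increase was spread over circRNAs of many shapes. The most abundant, chr17:60996146-61045393, had 70, 31 and 0 reads in Boer and 11, 892 and 654 in Macheng black, and a log2 fold change of -4.38 ± 0.94 (edgeR adjusted p = 0.0155). The one with the same start, chr17:60996146-61031371, had 13, 0 and 0 reads against 5, 114 and 110 (-4.69 ± 0.79, edgeR adjusted p = 0.00198). The circRNA chr17:60997112-61031551 had 8, 5 and 5 reads against 4, 180 and 43, chr17:60996034-61029927 had 23, 5 and 10 against 7, 228 and 81, chr17:60994251-61041283 had 32, 13 and 10 against 6, 182 and 168, and chr17:60997112-61045573 had 17, 5 and 0 against 0, 187 and 78. For these 4 the edgeR log2 fold changes were -3.81, -3.38, -3.15 and -3.93, with adjusted p of 0.00255, 0.00352, 0.00993 and 0.011. Each of the 6 lost its call in 6 to 11 of 19 alternatives. In all 6, Macheng black 2 and 3 were the highest libraries and Macheng black 1 was in or below the Boer range. Non-junction reads moved with the back-splice reads: for chr17:60996146-61045393 they were 3582 and 1358 in Boer 1 and 2 and 641, 28863 and 25333 in the 3 Macheng black goats. The junction read share of that circRNA accordingly stayed between 1.69% and 2.998%.

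**Figure D5:**
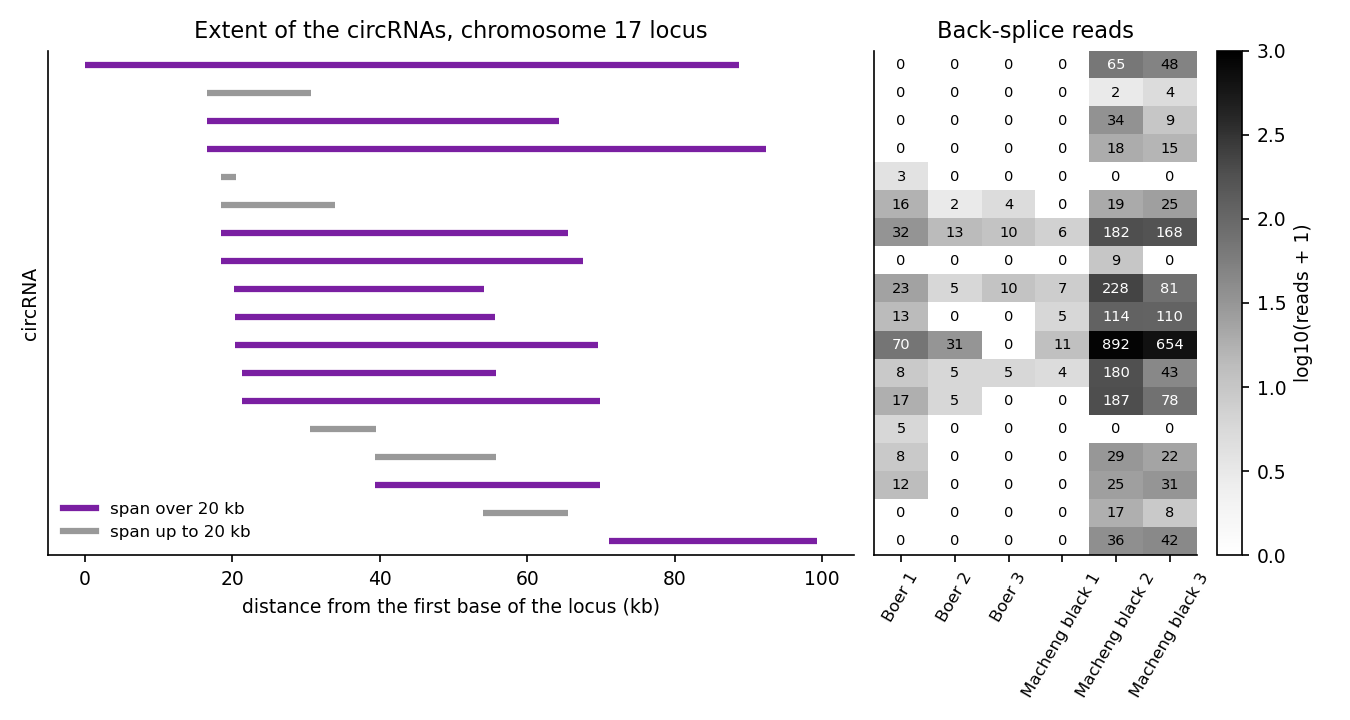
Left, each of the 18 circRNAs of the chromosome 17 locus is a line from its start to its end, in kilobases from the first base of the locus, purple where the span exceeds 20 kb (12) and grey otherwise (6); right, its back-splice reads in the 6 libraries, shaded on a log scale, with 0 where it was not listed. Columns of Macheng black 2 and 3 are dark over most of the locus, and that of Macheng black 1 resembles the Boer columns.

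The 2 other members past the threshold were listed in one breed only. The circRNA chr16:57786278-57822288 on the plus strand had 40, 7 and 14 reads in Boer and no listing in the other breed (edgeR log2 fold change 7.06 ± 1.24, adjusted p = 0.00261). Its span of 36011 bases allows up to 3 unlisted reads per library by the inferred listing minimum. With 3 reads in each Macheng black library, its mean level would be 4.50-fold higher in Boer. The circRNA chr1:149011251-149063500 on the minus strand had 14, 11 and 12 reads in Macheng black and no listing in the other breed (edgeR log2 fold change -6.88 ± 1.26, adjusted p = 0.00352). Its span of 52250 bases allows up to 5 unlisted reads by the same minimum. With 5 reads in each Boer library, its mean level would be 2.98-fold lower in Boer. Counting error is not part of either fold. Both circRNAs met the filter on reads only through the breed that lists them, and their calls rest on the 0 entered for the other. With every unlisted circRNA set to the most reads it could have had, neither passed (edgeR log2 fold change 2.19, adjusted p = 0.0714, and -1.64, adjusted p = 0.335), while the 6 of chromosome 17 did. Over 16 alternatives each, the chromosome 16 circRNA lost its call in 5 and the chromosome 1 circRNA in 6. Of the remaining circRNAs with the smallest p toward Boer, chr1:128146192-128186656 and chr3:32729095-32763826 on the plus strand each had 8, 5 and 7 reads against no listing, and chr20:35765598-35787181 on the minus strand had 11, 4 and 5; none passed (edgeR adjusted p = 0.659, 0.659 and 0.721).

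Summed by locus, 576 loci with a long intronic circRNA were tested and 4 passed, 2 in each direction. That is 0.694%, against a background of 0.341% of all 2934 loci (0.102% higher in Boer, 0.239% higher in Macheng black). The breeds did not overlap at 74 of 576 loci (12.8%), close to the 12.7% of all loci tested.

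The plus-strand locus chr16:57780433-57822288 separated the breeds in every library. It had 136, 28 and 52 reads in Boer and 5, 18 and 3 in Macheng black, or 1920, 1054 and 1208 CPM against 136, 376 and 123 CPM. All Boer goats were above all Macheng black goats (edgeR log2 fold change 2.63 ± 0.42, adjusted p = 7.08e-05), and the locus passed in all 18 alternatives run, with adjusted p up to 0.0415. If every unlisted circRNA of the locus had the most reads its listing minimum allows, Macheng black would reach 571, 584 and 821 CPM, still below the 1054 CPM of the lowest Boer goat. Its long circRNAs supplied 116 of the locus reads (47.9%). The shorter chr16:57803816-57822288, which ends at the same base as chr16:57786278-57822288, had 52, 11 and 23 reads in Boer and 2, 5 and 3 in Macheng black, while its non-junction reads were 1790, 1221 and 753 against 832, 720 and 1158. For this circRNA, counts not scaled for depth thus separated the breeds in back-splice reads and overlapped in non-junction reads. At the chromosome 17 locus, both counts of chr17:60996146-61045393 were highest in Macheng black 2 and 3.

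The other 2 loci rested mostly on shorter circRNAs. The minus-strand locus chr19:13651450-13676607 had 0, 2 and 0 reads in Boer and 10, 41 and 15 in Macheng black (edgeR log2 fold change -5.00 ± 0.85, adjusted p = 0.000133), but its single long circRNA gave 5 of these reads, all in Macheng black 3. It lost the call in 2 of 18 alternatives, both without Macheng black 2, with adjusted p of 0.054 and, with the filter applied again, 0.171. The plus-strand locus chr10:69015269-69096171 had 55, 5 and 66 reads in Boer and 3, 10 and 5 in Macheng black, with 30 from long circRNAs. Boer 2 lay among the Macheng black goats, and the locus passed with all libraries (edgeR log2 fold change 2.36 ± 0.52, adjusted p = 0.00919) but lost the call in 9 of 18 alternatives, with adjusted p up to 1.0. These included the fits without Boer 3 (0.967), without Macheng black 3 (0.152) and with DESeq2 (0.577).

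Further loci with small p-values did not pass as fitted. Toward Macheng black, chr3:82520208-82578186 on the plus strand had 23, 5 and 0 reads in Boer and 22, 46 and 15 in Macheng black, its levels did not overlap (325, 188 and 0 CPM against 598, 960 and 615 CPM), and 4 of its 5 circRNAs were long (edgeR log2 fold change -1.99 ± 0.53, adjusted p = 0.0918). It passed in 5 of 18 alternatives, with an adjusted p of 0.00326 without Boer 1, 0.0316 without Macheng black 1, 0.0393 with RLE size factors, 0.0121 with a robust prior and 0.00992 with the replicate number as a block. The locus chr2:103431041-103462561 on the minus strand, 1 long circRNA, was listed in Macheng black only, with 5, 11 and 4 reads (edgeR adjusted p = 0.373). Toward Boer, chr3:28591209-28652158 and chr13:20442876-20468270 on the plus strand and chr11:73840801-73872104 on the minus strand had non-overlapping breeds with log2 fold changes of 1.64, 1.45 and 1.59 (edgeR adjusted p = 0.376 for each).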

How the data were processed

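The series holds 1 table per library, with circRNA position, strand, parts, identifier and 2 columns of whole-number counts. The authors deposited raw counts of back-splice and non-junction reads, not normalized, per the file headers; full and spliced lengths in bases are other deposited values. The submitters' processing notes name Bowtie2 2.0.6 and TopHat2. The caller of circRNAs is not given in the sources used here, nor is the build or annotation. For Boer 2, the code in the labels and that of its table differ in the final digit, and the breed letters match. The listing minimum described above was read from the values; no header records it. Other deposited columns were used to select and describe circRNAs only.

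Starts were converted to count from 1. Members, comparison sets and rules for naming were chosen with earlier results of these data known. Identifiers were joined to their own listed parts; symbols came from the RefSeq gene table (ARS1.2). Counts were tested with edgeR 4.0.16 in R 4.3.3 (quasi-likelihood, TMM, all listed back-splice reads as library size, at least 2 reads in at least 3 libraries, Benjamini-Hochberg over all features at 0.05), and with DESeq2 1.42.0 as an alternative. Library-level values were tested by exact permutation in Python 3.11.15. Intervals are exact Clopper-Pearson at 95%. Total listed reads of 23480 to 74796 set the precision. The named circRNAs are the 10 of highest mean CPM, the 5 of smallest p in each direction and all past the threshold, the 3 longest, 3 on each side of the span limit and the 5 of highest junction read share; loci are the 8 with the most members, the 8 with the most member reads, the 5 of smallest p in each direction, all past the threshold and the 5 of highest CV among 30; identifiers and end positions are the 5 with the most members. Alternatives covered normalization, filters, span and identifier limits, matching of ends, locus definition, the replicate number as a block and leaving out each library. Scripts were tested on simulated data. No labels state a batch, so within-batch values could not be given. Each library is labelled as a separate animal.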

Additional observations from a re-analysis of the deposited data

How the results depend on the processing

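Counts of long intronic circRNAs past the edgeR threshold (8 as reported) were 4 with DESeq2, 22 with no filter, 0 with at least 5 reads in 3 libraries (where 22 had an unadjusted p under 0.05), 3 with a robust prior and 0 to 11 when 1 library was left out. Counts of loci (4 as reported) were 2 with DESeq2, 8 with no filter, 2 with at least 5 reads, 8 when loci were joined by shared ends and 2 to 6 when 1 library was left out. Same-numbered animals did not deviate together (correlations -0.0331, -0.0393 and 0.0118); with the replicate number as a block, 6 circRNAs and 4 loci were called, and the block turned chr10:55304456-55361835 (log2 fold change 0.30, -2.40 as reported), which was 7.04 (edgeR adjusted p = 0.0039) without Macheng black 1. Leaving out that library moved the chr23:24338001-24405648 locus to 0.44 (0.45 with the filter applied again), chr23:24338001-24381470 to 0.0139 and chr23:24338001-24362056 to 0.78 (0.81 with the filter applied again); their lowest values, all without Boer 2, were -3.28, -13.0 and -1.49, and that of the chromosome 10 locus, without Boer 3, was -3.32. The read share by breed was reversed as a share of distinct circRNAs (0.991 points) and for spans over 50000 bases (0.0344). The junction read share by breed was reversed as a ratio of summed reads (-0.0161) and without Boer 1 (-0.0138), ranging to 0.178 when other libraries were left out. Differences in junction read share when 1 library was left out were -1.77 to -1.61 points against all others, -1.65 to -1.51 against short circRNAs and -0.251 to -0.201 against long usable ones (-0.278 from summed reads, -0.192 over 50000 bases); 5 libraries cannot go below p = 0.0625 in that exact permutation test. Taken as non-junction reads per kilobase, comparison set minus long intronic circRNAs, differences were -2.09 against all others (exact permutation p = 0.125) and 0.739 against short circRNAs. The share listed in another library was 8.75 to 11.7 points higher when 1 library was left out, and reversed with at least 5 reads (-6.06), at least 10 reads (-2.89) and against long usable circRNAs (-2.95). The cause of these changes was not tested. Alternatives with at least 10 reads, the robust prior, the second filter, unlisted reads, equal reads with the listing minimum kept, non-junction reads and the long usable set were added after seeing the data. The median long intronic entry had 5 to 7 reads per library, and listing starts at 3; how the counts move with depth was not tested.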

Other observations

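The following values were picked out after they were seen. At the chromosome 23 locus, 3 start positions were each joined to 2 end positions, and the distances between the 2 ends were alike: 19414 bases for the start at 24338001, 19425 bases for the start at 24339102 and 19541 bases for the start at 24342755. At the first chromosome 17 locus, 5 starts were joined to more than 1 end. Those at 60996146, 60997112 and 61015065 had pairs of ends 14022 bases apart, and the other 2, at 60992412 and 60994251, had 9 distances between 2026 and 61657 bases, 0 of them 14022. The 6 ends at chromosome 23 were 6 different bases (24362056, 24381470, 24362999, 24382424, 24366291 and 24385832), whereas at chromosome 17 the starts at 60997112 and 61015065 used the same pair of ends, 61031551 and 61045573. No test was run on these distances, and no sequence of the build was used here.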
